A study of Mus musculus with 16 samples.

Results

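Ventricles of mouse pups at postnatal day 4 (P04) were compared with ventricles at postnatal day 1 (P01) across all RNA classes recorded in small RNA sequencing libraries. The comparison used every P04 and P01 library of the count table, 4 at P04 and 4 at P01, which is 8 of the 16 libraries of the series. The other libraries came from days 9 and 23 (P09 and P23). All pups were male or female C57BL/6JOlaHsd mice killed before weaning, with no genetic modification or treatment named in the labels, so age was the intended difference between the groups. Each library was made from the total RNA of 1 pup's ventricular tissue, all cell types together. The RNA was tailed with poly(A), copied into cDNA and amplified with the SMARTer smRNA-Seq kit, and sequenced on an Illumina NextSeq instrument. Libraries are named here by the animal numbers of the count table (P04 replicates 1, 3, 4 and 6, P01 replicates 1, 5, 6 and 8), which are not the replicate numbers of the sample labels. Values for single libraries are given in the order of these numbers.

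In the days after birth the mouse heart meets more oxygen and a milk diet rich in fat, and its muscle cells turn from glucose and lactate to fatty acids as fuel. Over the same period the cells begin to leave the cell cycle and replace fetal forms of contractile proteins with adult ones. Small RNA libraries hold more than microRNAs (miRNAs, short RNAs that pair with messenger RNAs through a seed at their 5' end and lower their output). Small nucleolar RNAs (snoRNAs) guide chemical modification of ribosomal RNA, and long noncoding RNAs (lncRNAs), ribosomal RNA, mitochondrial RNA and pieces of messenger RNA are also copied. Counts on protein-coding genes are therefore counts of short RNA fragments, and how closely they follow the level of the whole messenger RNA was not measured here.

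The miRNAs on which the results turn are shown with the seed (bases 2 to 8) in capitals. Mature sequences and positions were taken from RefSeq for GRCm38.p6, and 11 of the 12 miRNA genes that were called between the days had one. Counts were made per precursor gene, so the 2 arms of a hairpin were not told apart. First come miRNAs lower at P04, then Mir200c, which was higher, and then pairs that share a seed or a precursor cluster and did not all pass the test.
miR-351-5p (chrX:53053315-53053338, - strand): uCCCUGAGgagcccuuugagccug
miR-2137 (chrX:72992113-72992133, + strand): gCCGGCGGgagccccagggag
miR-210-3p (chr7:141221407-141221428, - strand): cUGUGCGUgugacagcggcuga
miR-495-3p (chr12:109718795-109718816, + strand): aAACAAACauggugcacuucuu
miR-877-5p (chr17:35960795-35960814, - strand): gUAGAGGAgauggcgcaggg
miR-1983 (chr13:21896930-21896950, - strand): cUCACCUGgagcauguuuucu
miR-200c-3p (chr6:124718324-124718346, - strand): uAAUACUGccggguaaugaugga
miR-125b-5p (chr16:77646279-77646300, + strand): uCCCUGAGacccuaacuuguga
miR-322-5p (chrX:53054306-53054327, - strand): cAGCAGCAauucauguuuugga
miR-503-5p (chrX:53054027-53054049, - strand): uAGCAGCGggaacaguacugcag
miR-208a-3p (chr14:54949072-54949093, - strand): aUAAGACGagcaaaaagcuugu
miR-208b-3p (chr14:54975710-54975731, - strand): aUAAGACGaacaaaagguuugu

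The libraries held 3336621 to 4478212 counts at P04 (median 3541018) and 2301587 to 2904097 at P01 (median 2832268), so every P04 library was deeper than every P01 library. The deposited labels named the tissue as ventricle, and all 14 cardiomyocyte markers examined were counted, with a summed level of 13028 to 15872 CPM (counts scaled to a common library total) at P04 and 8963 to 10136 at P01. The first principal component carried 36.5% of the variance and split the days, with P04 libraries at 15.8 to 36.0 and P01 libraries at -36.0 to -21.7. P04 replicate 4 lay nearest to the P01 libraries. Xist, expressed from the inactive X chromosome of females, had 294 counts or more in P04 replicates 4 and 6 and P01 replicates 5, 6 and 8, and 2 counts or fewer in the others, so the sexes were not balanced between the days. Erythroid markers summed to 228 to 275 CPM at P04, against 359 to 387 at P01.

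Of 53801 genes in the table, 10742 had enough counts to be tested. A gene was called higher or lower when the edgeR quasi-likelihood test gave an adjusted p under 0.01 and the fold change exceeded 1.8, the thresholds of the study. At P04, 115 genes were higher (1.07% of those tested) and 444 were lower (4.13%), relative to P01, 559 in all (5.2%). Of the called genes that averaged 300 or more normalized counts in the P04 libraries or in the P01 libraries, 6 were higher and 63 were lower. Protein-coding genes made up most of both groups, with 107 higher and 378 lower of 9554 tested. Of 200 lncRNA genes, 3 were higher and 22 lower, 11.0% of the class. Of 206 miRNA genes, 2 were higher and 10 lower, and of 165 snoRNA genes 1 was lower and none higher. Among mitochondrially encoded genes, 1 of 17 tRNAs was higher and 1 lower, and none of the 8 mRNAs and 2 rRNAs was called. Because the tissue was taken whole, fewer cells of a type and less RNA per cell cannot be told apart in any of these values.

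**Figure D1:**
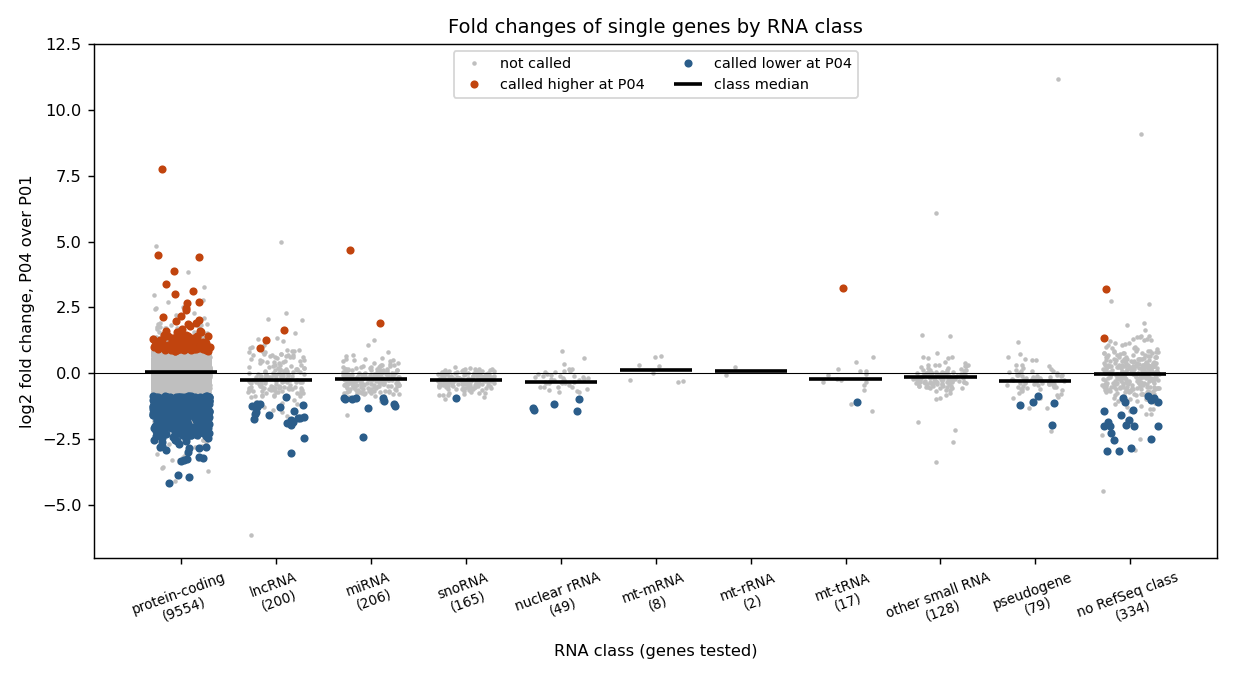
Log2 fold change of each of the 10742 tested genes, P04 over P01, by RNA class, with the number tested under each class. Red points were called higher at P04, blue points were called lower, grey points were not called, and the black bar is the class median. The bar lies at 0.03 for protein-coding genes and below 0 for lncRNA, miRNA and snoRNA genes (-0.25, -0.22 and -0.23).

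Among the falls, 1 library of each day stood apart. P04 replicate 4 had the highest P04 value for 312 of the 444 genes that were lower at P04 (70.3%, against 29.1% of all genes tested), which made the falls smaller. P01 replicate 5 had the highest P01 value for 248 of the 444 (55.9%, against 27.5%), which made them larger. Without P04 replicate 4 the counts were 127 higher and 524 lower, and without P01 replicate 5 they were 98 higher and 383 lower. Falls numbered 413, 418 and 418 without P01 replicate 1, 6 or 8, so leaving out P01 replicate 5 gave the fewest of its day. They numbered 354, 362 and 360 without P04 replicate 1, 3 or 6. Library size was set by all genes, and the choice mattered for the split between the directions. Sizes taken from miRNA genes alone raised the fold change of the median gene by 0.25 and gave 175 higher and 253 lower, and sizes taken from snoRNA genes alone raised it by 0.26 and gave 119 higher and 170 lower. The median log2 fold change over all genes was then 0.27 and 0.26. List medians given below with these sizes are to be read beside those values. Sizes taken from a class set the median of that class near 0 by design.

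Shares of all counts were then compared by RNA class. Nuclear ribosomal RNA took 38.3%, 41.5%, 41.9% and 41.8% of counts in P04 libraries, against 46.6%, 46.9%, 42.4% and 44.3% in P01 libraries. Mitochondrial ribosomal RNA took 20.8%, 19.4%, 17.4% and 18.2% at P04, against 14.9%, 13.7%, 15.6% and 15.8% at P01. Neither of these classes overlapped between the days, and an exact permutation test over libraries gave p = 0.0286 for each (two-sided, the smallest value that 4 against 4 libraries allow), which was 0.0762 after adjustment over 8 classes. As a share of nuclear counts alone, nuclear ribosomal RNA took 51.9% to 54.6% at P04 and 52.7% to 57.6% at P01, so the days overlapped (difference of the means -2.16 percentage points, exact permutation p = 0.171). Messenger RNA fragments of nuclear genes took 17.3% at P04 and 17.8% at P01 on average, snoRNAs 10.0% and 10.7%, and miRNAs 3.51% and 3.36%, with overlapping libraries in each case (exact permutation p = 0.4, 0.371 and 0.8). The mean miRNA share at P04 rested on P04 replicate 4, at 4.54%, and the difference of the means was -0.20 percentage points without that library.

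**Figure D2:**
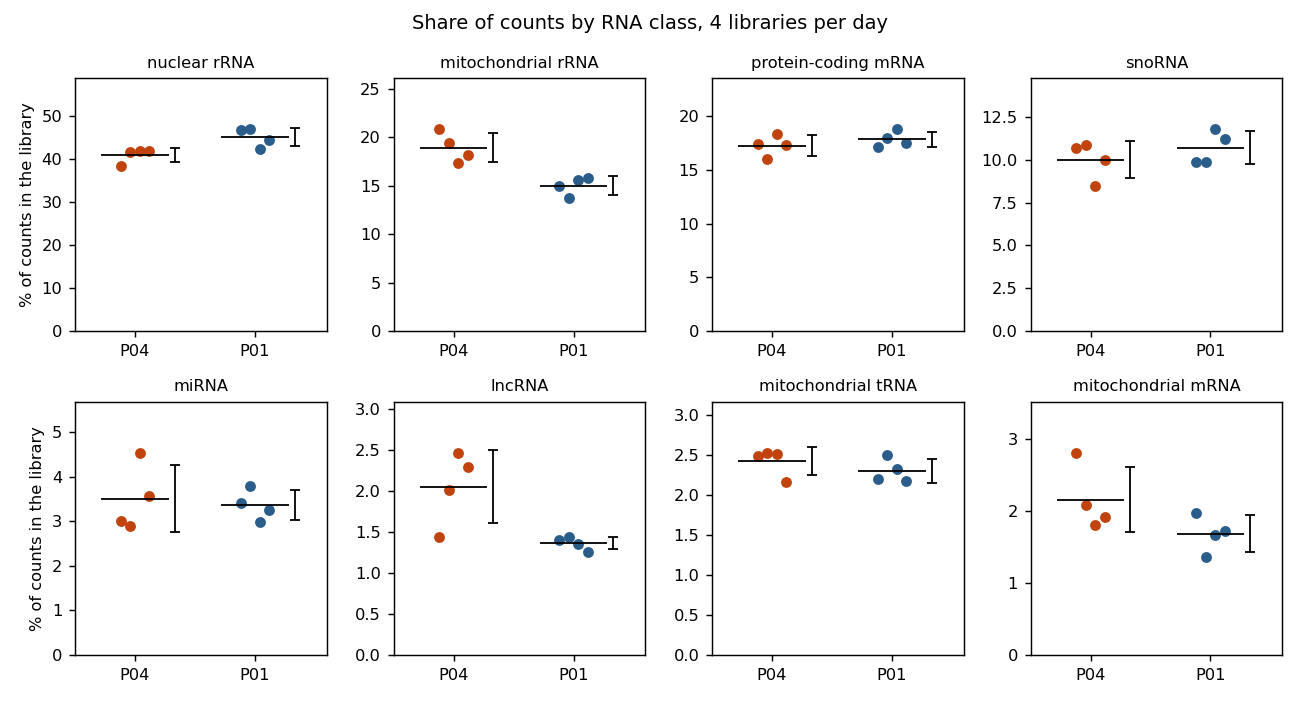
Share of all counts taken by each RNA class, in percent, in each P04 library (left, red) and P01 library (right, blue). Horizontal bars are the means of 4 libraries and the error bars beside them 1 SD, on axes that start at 0. Nuclear rRNA (P04 below P01), mitochondrial rRNA and lncRNA (P04 above P01) are the classes without overlap.

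The lncRNA share was 1.44%, 2.02%, 2.47% and 2.29% in P04 libraries, against 1.40%, 1.44%, 1.36% and 1.26% in P01 libraries (exact permutation p = 0.0286, adjusted 0.0762). A single gene carried this difference. 4930583K01Rik, a lncRNA gene at chr7:118243907-118245551 (GRCm38.p6), had 9962, 41302, 47587 and 44028 counts in P04 libraries, against 9205, 7501, 0 and 0 in P01 libraries. It thus took 20.6% to 57.8% of the lncRNA counts of a P04 library. The gene itself was not called (log2 fold change 2.30 ± 1.63 (SE), edgeR adjusted p = 0.434). Its normalized count in P04 replicate 1 lay below those of P01 replicates 1 and 5, so the days overlapped. Without it, lncRNAs took 1.10% at P04 and 1.20% at P01 on average (exact permutation p = 0.257, adjusted 0.457).

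Fragments of genes for the uptake and oxidation of fatty acids formed the clearest group of rises. Of 36 such genes tested, 14 were higher at P04 and none was lower, where 1.07% of all genes were higher, and 33 of the 36 had a fold change above 0. Their median log2 fold change was 0.66, beside 0.01 over all genes. With any 1 library left out, 11 to 15 members were called higher and no more than 1 lower. The list was chosen with earlier results of these data known.

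Fabp3, the fatty acid carrier of heart and muscle cytoplasm, was the member with the smallest adjusted p. Its normalized counts were 1872, 1736, 1303 and 1505 in P04 libraries, against 618, 647, 607 and 641 in P01 libraries. The days did not overlap, and the P01 libraries lay closer to each other than the P04 libraries did (log2 fold change 1.35 ± 0.14 (SE), edgeR adjusted p = 3.89e-08). Slc27a1, which brings fatty acids across the plasma membrane, had 33.4, 30.7, 17.1 and 20.7 normalized counts in P04 libraries, against 12.1, 13.3, 4.24 and 11.7 in P01 libraries. It was higher at P04 as well (log2 fold change 1.33 ± 0.32 (SE), edgeR adjusted p = 0.00396), while Cd36, another importer, did not reach the fold threshold although its days did not overlap (log2 fold change 0.62 ± 0.14 (SE), edgeR adjusted p = 0.00194). Acsl1, which joins fatty acids to coenzyme A, had 316, 292, 248 and 241 normalized counts in P04 libraries, against 133, 101, 154 and 142 in P01 libraries. It was higher without overlap (log2 fold change 1.04 ± 0.16 (SE), edgeR adjusted p = 1.12e-05).

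Both inner parts of the carnitine shuttle, which carries acyl groups into mitochondria, were higher. Cpt2, the inner-membrane transferase, had 64.6, 60.6, 38.6 and 46.1 normalized counts in P04 libraries, against 25.7, 22.8, 15.5 and 19.1 in P01 libraries (log2 fold change 1.35 ± 0.23 (SE), edgeR adjusted p = 7.39e-05). Slc25a20, the carnitine carrier, had 82.4, 61.4, 49.3 and 47.99 normalized counts in P04 libraries, against 21.1, 30.3, 40.96 and 35.2 in P01 libraries (log2 fold change 0.91 ± 0.21 (SE), edgeR adjusted p = 0.00324). In both the lowest P04 library lay above the highest P01 library. The outer-membrane transferase of muscle, Cpt1b, had few counts and was not called (log2 fold change 1.00 ± 0.51 (SE), edgeR adjusted p = 0.224).

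Inside the mitochondrion, several enzymes of the beta-oxidation spiral were higher. Acadvl, which starts the oxidation of very long chains, had 292, 232, 197 and 195 normalized counts in P04 libraries, against 104, 131, 106 and 117 in P01 libraries (log2 fold change 1.00 ± 0.14 (SE), edgeR adjusted p = 5.72e-06). Hadha, one subunit of the trifunctional protein, had 609.8, 557, 596 and 550.5 normalized counts in P04 libraries, against 246, 288, 274 and 283 in P01 libraries (log2 fold change 1.08 ± 0.14 (SE), edgeR adjusted p = 7.56e-07). The partner subunit Hadhb had 195, 220.1, 255 and 202 normalized counts in P04 libraries, against 506, 218, 473 and 197 in P01 libraries. In Hadhb 2 P01 libraries lay above every P04 library and the other 2 lay among them, and it was not called (log2 fold change -0.68 ± 0.25 (SE), edgeR adjusted p = 0.0933). Acaa2, the thiolase that ends each turn, and Etfdh, which passes the electrons to the respiratory chain, had log2 fold changes of 0.87 and 0.99 (edgeR adjusted p = 1.1e-05 and 1.64e-05). Ech1, which handles unsaturated chains and was not on the list, had 206, 212, 164 and 183 normalized counts in P04 libraries, against 52.9, 81.5, 55.1 and 67.5 in P01 libraries. It was higher without overlap (log2 fold change 1.58 ± 0.15 (SE), edgeR adjusted p = 5.38e-09).

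Genes that act beside the spiral rose too, some from very low counts. Ucp3, a mitochondrial carrier of muscle, had 16.7, 9.39, 13.9 and 12.2 normalized counts in P04 libraries, against 1.51, 3.79, 1.41 and 1.47 in P01 libraries (log2 fold change 2.66 ± 0.54 (SE), edgeR adjusted p = 0.000839). Plin5, which ties lipid droplets to mitochondria, had 18.8, 23.9, 24.7 and 25.4 normalized counts in P04 libraries, against 7.55, 11.4, 8.47 and 5.87 in P01 libraries (log2 fold change 1.49 ± 0.26 (SE), edgeR adjusted p = 0.000125). Both were above P01 in every P04 library. The thioesterases Acot2 and Acot1, close copies of each other between which the counting may have split reads, had log2 fold changes of 1.18 and 1.09 (edgeR adjusted p = 0.000136 and 0.000882). Oxct1, which lets the heart burn ketone bodies, had 200.2, 247, 208 and 202 normalized counts in P04 libraries, against 311, 265, 374 and 279 in P01 libraries, below P01 in every P04 library but under the fold threshold (log2 fold change -0.52 ± 0.14 (SE), edgeR adjusted p = 0.00857). Ppargc1a, a coactivator of mitochondrial genes, was not called (log2 fold change 0.16 ± 0.15 (SE), edgeR adjusted p = 0.53). With 1 library left out, calls were lost for Acaa2 without P04 replicate 1 or 3 or P01 replicate 6 (log2 fold change 0.81 to 0.82, adjusted p 0.000106 to 0.000176), Slc27a1 without P04 replicate 1 or 3 or P01 replicate 6 (log2 fold change 1.05 to 1.22, adjusted p 0.0169 to 0.0305) and Slc25a20 without P04 replicate 1 or P01 replicate 1 or 5 (log2 fold change 0.74 to 0.89, adjusted p 0.012 to 0.0241).

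**Figure D3:**
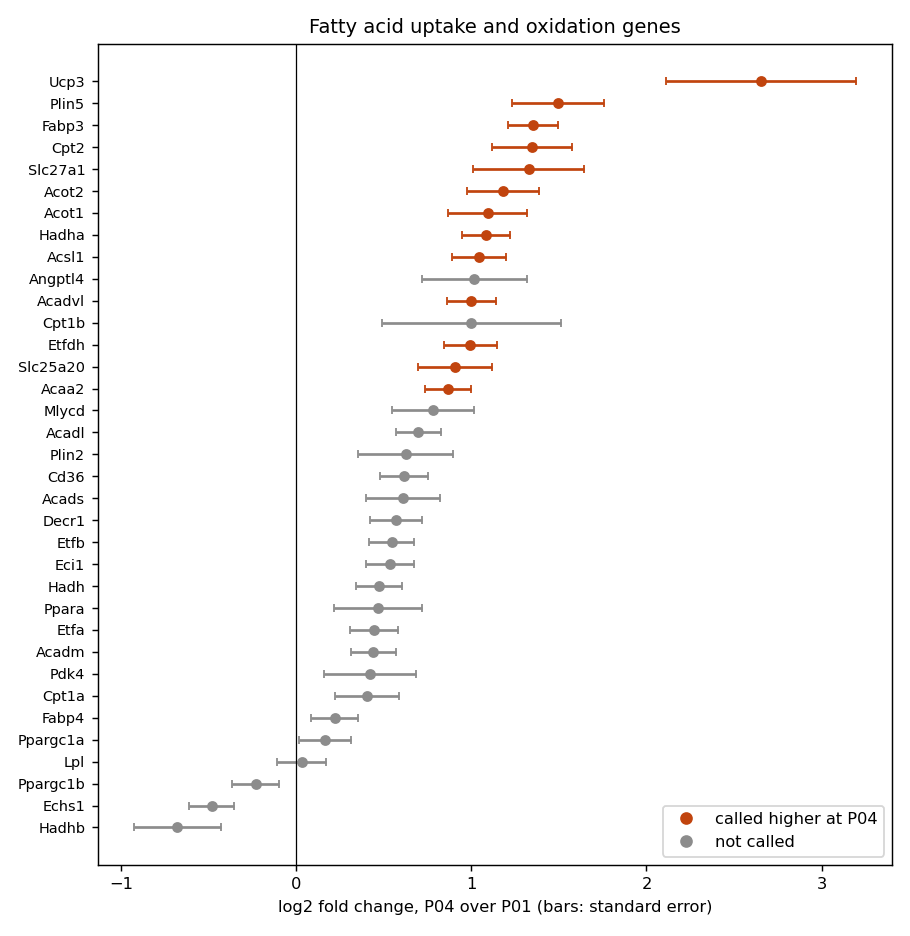
Log2 fold change, P04 over P01, of 35 of the 36 tested genes of fatty acid uptake and oxidation, with the standard error of the edgeR fit as bars. Red points were called higher at P04 and grey points were not called. Ucp3 lies at 2.66, Hadhb at -0.68, and 32 of the 35 points lie above 0.

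The rise was not seen across mitochondrial genes in general. Of 79 nuclear genes for respiratory chain subunits, none was called in either direction and the median log2 fold change was 0.02. None of 73 genes for mitochondrial ribosomal proteins was called (median 0.07), and none of 15 genes of cholesterol synthesis and uptake (median 0.23). Over all genes 1.07% were higher and 4.13% were lower, with a median of 0.01. At that share lists of this size would hold few rises, so their lack of calls says little beside the medians. Among 82 genes for cytoplasmic ribosomal proteins, Rps29 alone was lower, at 121, 113, 71.8 and 97.9 normalized counts in P04 libraries, against 183, 195, 219 and 214 in P01 libraries (log2 fold change -1.01 ± 0.23 (SE), edgeR adjusted p = 0.00665). Its call was kept without P04 replicate 1 and lost without any of the other 7 libraries (adjusted p up to 0.0248). The difference between the fatty acid list and these lists was not tested.

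Genes that respond to low oxygen were lower in part. Of 21 tested, 5 were lower at P04 and none was higher, where 4.13% of all genes were lower. The median log2 fold change was -0.26, beside 0.01 over all genes. It was 0.04 with the library sizes of miRNA genes and -0.01 with those of snoRNA genes, beside 0.27 and 0.26 over all genes. The list median lay below that of all genes in each case, while its sign depended on the scaling. The calls depended on it too, as Car9 was the only member lower with either of these sizes, and without the filter on low counts 2 were lower. Car9, a carbonic anhydrase induced by low oxygen, had 7.297, 7.68, 23.6 and 11.3 normalized counts in P04 libraries, against 64.96, 66.4, 55.1 and 64.6 in P01 libraries. Every P04 library was below every P01 library, with P04 replicate 4 the highest of its day (log2 fold change -2.35 ± 0.30 (SE), edgeR adjusted p = 1.13e-06). Slc2a1, the glucose transporter of the fetal heart, had 42.7, 29.9, 47.2 and 47.05 normalized counts in P04 libraries, against 58.9, 102, 66.4 and 80.7 in P01 libraries (log2 fold change -0.88 ± 0.20 (SE), edgeR adjusted p = 0.00202). It was also the only gene called among 19 of glycolysis. P4ha2, which hydroxylates collagen, Mxi1, a repressor related to Myc, and Ddit4, which restrains growth signalling through mTOR, had log2 fold changes of -0.91, -1.03 and -0.86 (edgeR adjusted p = 0.000839, 0.00288 and 0.00842). Ddit4 was the only one whose days overlapped. The miRNA best known as a target of the hypoxia factors, Mir210, had 402, 406, 638 and 508 normalized counts in P04 libraries, against 943, 1181, 828 and 817 in P01 libraries and was lower as well (log2 fold change -0.95 ± 0.19 (SE), edgeR adjusted p = 0.00143), a call lost with the sizes of miRNA or snoRNA genes. Of the list, 2 to 4 members were called with 1 library left out, and calls were lost for Slc2a1 without P04 replicate 3 or P01 replicate 5 (log2 fold change -0.72 to -0.74, adjusted p 0.0166 to 0.0184), P4ha2 without P04 replicate 1 or 6 or P01 replicate 5 (log2 fold change -0.80 to -0.84, adjusted p 0.00617 to 0.00858), Mxi1 without P04 replicate 3 or 4 or P01 replicate 5 or 6 (log2 fold change -0.90 to -1.02, adjusted p 0.0102 to 0.0242), Ddit4 without P04 replicate 1, 4 or 6 or P01 replicate 1, 6 or 8 (log2 fold change -0.67 to -0.90, adjusted p 0.0145 to 0.0748) and Mir210 without P01 replicate 5 (log2 fold change -0.82, adjusted p 0.00694).

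The fetal and adult forms of myosin moved in opposite directions. Myh6, the fast adult myosin heavy chain of mouse ventricles (chr14:54941921-54968017), had 7164, 6694, 5981 and 6753 normalized counts in P04 libraries, against 3247, 3144, 3462 and 3279 in P01 libraries. The neighbouring Myh7, the slow fetal chain (chr14:54970684-54994626), had 874, 620.3, 667 and 784 normalized counts in P04 libraries, against 3889, 3479.7, 3285 and 3798 in P01 libraries. Neither overlapped between the days (log2 fold change 1.02 ± 0.15 (SE), edgeR adjusted p = 7.84e-06 for Myh6, and log2 fold change -2.30 ± 0.19 (SE), edgeR adjusted p = 3.02e-10 for Myh7). Each gene holds a miRNA with the seed UAAGACG, shown above. Mir208a in Myh6 had 509, 631, 1011 and 570.2 normalized counts in P04 libraries, against 429, 472, 451 and 369.7 in P01 libraries. Mir208b in Myh7 had 46.9, 68.3, 104 and 79.04 normalized counts in P04 libraries, against 129.9, 116, 86.2 and 117 in P01 libraries. They lay in the direction of their hosts, but neither was called (log2 fold change 0.66 ± 0.19 (SE), edgeR adjusted p = 0.0219 for Mir208a, and log2 fold change -0.59 ± 0.20 (SE), edgeR adjusted p = 0.05 for Mir208b). Myh7 and Mir208b are also overlapped by the lncRNA gene Gm31251 (chr14:54975264-55005006), which had 44.8, 44.4, 42.9 and 38.6 normalized counts in P04 libraries, against 15.1, 15.2, 21.2 and 19.1 in P01 libraries and was higher (log2 fold change 1.26 ± 0.20 (SE), edgeR adjusted p = 2.79e-05). The counting is not stated to use strand, and without it reads of these overlapping genes cannot be told apart.

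Of 29 genes of adult heart muscle, 3 were higher and none lower (median log2 fold change 0.32), and 26 had a fold change above 0. Besides Myh6 these included Kcnj11, a potassium channel gated by ATP, with 50.04, 42.7, 41.8 and 48.9 normalized counts in P04 libraries, against 18.1, 18.96, 24.01 and 24.9 in P01 libraries (log2 fold change 1.08 ± 0.19 (SE), edgeR adjusted p = 0.000152). Atp2a2, the calcium pump, lay above P01 in every P04 library without reaching the fold threshold (log2 fold change 0.77 ± 0.17 (SE), edgeR adjusted p = 0.00174). Of 17 genes of fetal muscle, 3 were lower and 2 higher. Of all genes tested, 1.07% were higher, 4.13% were lower and 49.2% had a fold change below 0 (median log2 fold change 0.01). Myl4, the light chain of atria and fetal ventricles, had 32.3, 9.39, 24.7 and 47.05 normalized counts in P04 libraries, against 118, 110.0, 145 and 149.6 in P01 libraries (log2 fold change -2.22 ± 0.42 (SE), edgeR adjusted p = 0.00324). Casq1, the calcium store protein of fast skeletal muscle, had 2.08, 5.97, 6.43 and 3.76 normalized counts in P04 libraries, against 16.6, 20.9, 32.5 and 10.3 in P01 libraries (log2 fold change -2.10 ± 0.40 (SE), edgeR adjusted p = 0.000386). Acta1, the skeletal actin, had 60.5, 58.9, 88.96 and 85.6 normalized counts in P04 libraries, against 24.2, 20.9, 32.5 and 30.8 in P01 libraries (log2 fold change 1.42 ± 0.23 (SE), edgeR adjusted p = 6.49e-05). Xirp2, an actin-binding repeat protein of the intercalated disc, had 47.95, 65.7, 38.6 and 42.3 normalized counts in P04 libraries, against 13.6, 17.1, 9.89 and 24.9 in P01 libraries (log2 fold change 1.57 ± 0.23 (SE), edgeR adjusted p = 1.84e-05). The fetal list thus held members of both directions, each without overlap. With 1 library left out, the call was lost for Myl4 without P04 replicate 1 or 4 or P01 replicate 6 or 8 (log2 fold change -2.15 to -2.27, adjusted p 0.0107 to 0.0125).

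Myl4 was also one of 4 atrial markers tested, all with a fold change below 0 (median -1.30). Their summed level, over 7 markers, was 43.5 to 110 CPM at P04, against 132 to 190 at P01. Another of them, Nppa, the atrial natriuretic peptide that fetal ventricles also make, had 100.1, 105, 78.2 and 178 normalized counts in P04 libraries, against 441, 353, 393 and 437 in P01 libraries, without overlap, and was not called (log2 fold change -1.81 ± 0.54 (SE), edgeR adjusted p = 0.0451). The part of atrial tissue in these values was not tested.

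**Figure D4:**
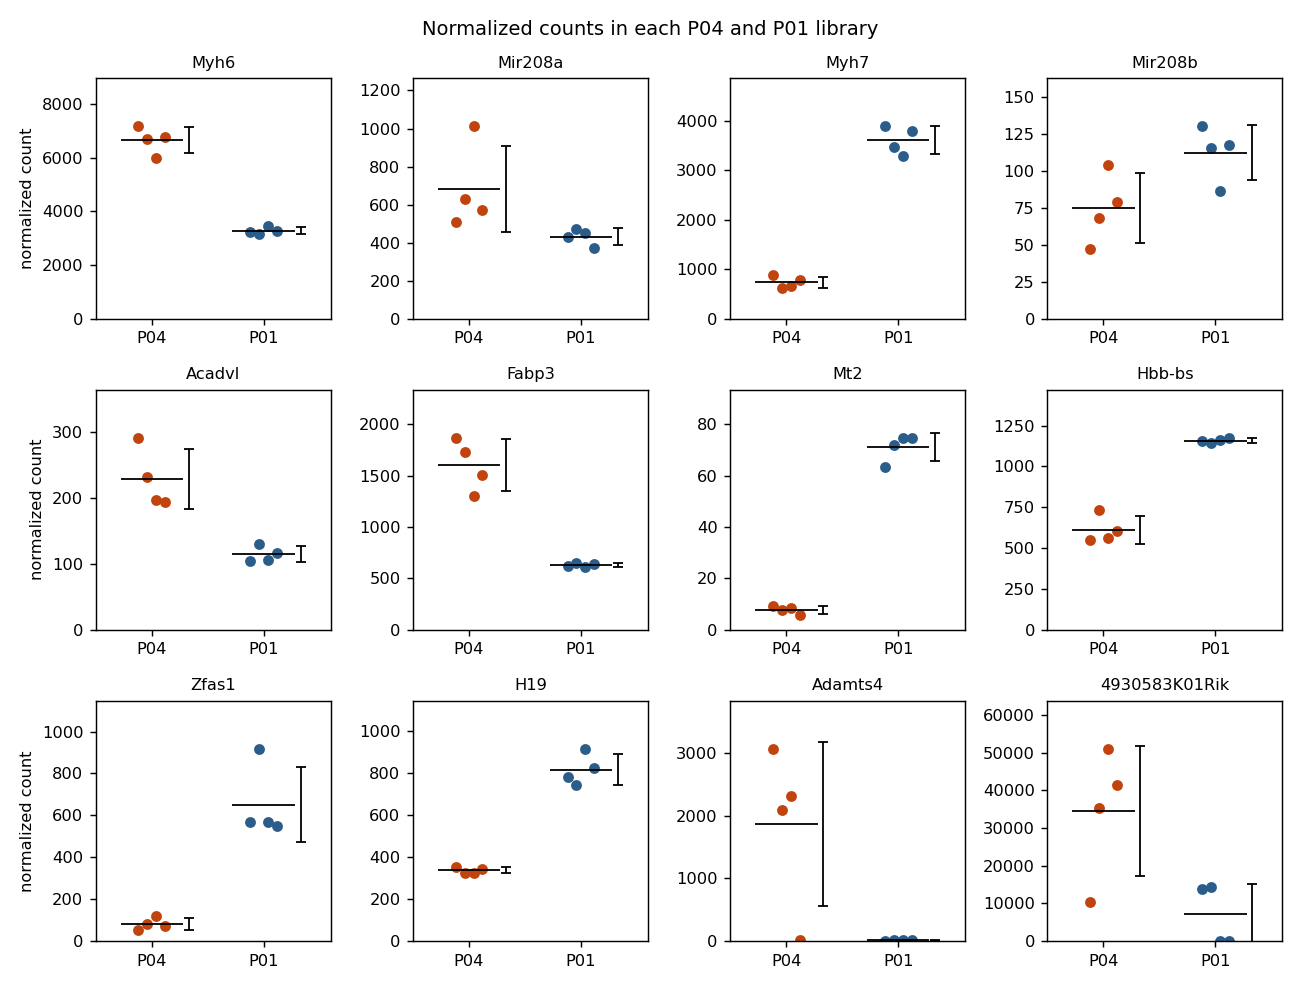
Normalized counts of 12 genes in each P04 library (left, red) and P01 library (right, blue), on linear axes that start at 0. Horizontal bars are the means of 4 libraries and the error bars beside them 1 SD. Mir208a and Mir208b lie on the side of their hosts Myh6 and Myh7 but were not called, P04 replicate 6 lies near 0 for Adamts4, and 2 P01 libraries are at 0 for 4930583K01Rik.

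Some genes that respond to glucocorticoids or thyroid hormone were lower. Of 15 tested, 6 were lower and none was higher, where 4.13% of all genes were lower. The other 9 were not called, and 4 of the 15 had a fold change above 0. The median log2 fold change was -0.66 (-0.40 with the library sizes of miRNA genes and -0.42 with those of snoRNA genes). With any 1 library left out 6 were lower, and with the sizes of miRNA or snoRNA genes 4 were, as Fkbp5 and Per1 lost their calls. Mt2, a metallothionein that binds zinc, had 9.38, 7.68, 8.57 and 5.65 normalized counts in P04 libraries, against 63.5, 72.1, 74.9 and 74.8 in P01 libraries. Mt1, its neighbour, had 100.1, 106, 83.6 and 101 normalized counts in P04 libraries, against 227, 231, 287 and 258 in P01 libraries. Both were clear of overlap, by -3.18 ± 0.25 and -1.36 ± 0.14 (log2 fold change and SE, edgeR adjusted p = 2.62e-10 and 2.91e-08). Zbtb16, a transcription factor induced by the glucocorticoid receptor, had 14.6, 6.83, 5.36 and 7.53 normalized counts in P04 libraries, against 42.3, 17.1, 36.7 and 52.8 in P01 libraries (log2 fold change -2.14 ± 0.33 (SE), edgeR adjusted p = 3.37e-05). Fkbp5, a chaperone that restrains that receptor, had 10.4, 7.68, 8.57 and 14.1 normalized counts in P04 libraries, against 31.7, 18.96, 28.2 and 26.4 in P01 libraries (log2 fold change -1.38 ± 0.27 (SE), edgeR adjusted p = 0.00059). Cdkn1a, the cell cycle inhibitor p21, had 26.1, 29.9, 18.2 and 23.5 normalized counts in P04 libraries, against 71.004, 66.4, 100.3 and 73.4 in P01 libraries (log2 fold change -1.66 ± 0.19 (SE), edgeR adjusted p = 1.1e-07). In none of these did a P04 library reach a P01 library.

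The sixth was Per1, a clock gene that hormones also induce, with 41.7, 34.1, 23.6 and 29.2 normalized counts in P04 libraries, against 75.5, 75.9, 106 and 58.7 in P01 libraries (log2 fold change -1.30 ± 0.19 (SE), edgeR adjusted p = 1.1e-05). Per2, its paralog, had 8.34, 8.53, 7.503 and 2.82 normalized counts in P04 libraries, against 27.2, 22.8, 14.1 and 16.1 in P01 libraries and was lower too (log2 fold change -1.53 ± 0.37 (SE), edgeR adjusted p = 0.00411). They were the only genes called among 16 of the circadian clock, where 5.2% of all genes were called, and the median log2 fold change of the list was 0.11. Neither was called with the sizes of miRNA or snoRNA genes. With 1 library left out, the call was lost for Per2 without P04 replicate 6 or P01 replicate 1 or 5 (log2 fold change -1.26 to -1.47, adjusted p 0.0147 to 0.0318).

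Growth genes were mixed. Igf1, the growth factor that dominates after birth, had 108, 96.4, 102 and 101 normalized counts in P04 libraries, against 61.9, 47.4, 56.5 and 55.7 in P01 libraries and was higher (log2 fold change 0.87 ± 0.16 (SE), edgeR adjusted p = 0.000201). Igf2, the fetal growth factor, had 28.1, 23.9, 23.6 and 21.6 normalized counts in P04 libraries, against 40.8, 36.03, 48.02 and 55.7 in P01 libraries (log2 fold change -0.90 ± 0.24 (SE), edgeR adjusted p = 0.00996). H19, the imprinted lncRNA next to Igf2 (chr7:142575530-142578146), had 351, 325, 325 and 343 normalized counts in P04 libraries, against 779.5, 741, 914 and 820.1 in P01 libraries (log2 fold change -1.28 ± 0.15 (SE), edgeR adjusted p = 2.35e-07). Dlk1, a Notch-related protein of fetal tissues, had 45.9, 34.1, 31.1 and 43.3 normalized counts in P04 libraries, against 71.004, 87.2, 63.6 and 83.6 in P01 libraries (log2 fold change -0.98 ± 0.20 (SE), edgeR adjusted p = 0.000783). Cdkn1c, an imprinted cell cycle inhibitor, had 22.9, 28.2, 39.7 and 33.9 normalized counts in P04 libraries, against 67.98, 70.2, 64.97 and 49.9 in P01 libraries (log2 fold change -1.02 ± 0.23 (SE), edgeR adjusted p = 0.00231). All P04 libraries were on one side of all P01 libraries for each of the 5. Of 24 imprinted genes tested, these 4 were lower and Snrpn, a splicing protein gene, was higher, at 29.2, 29.01, 26.8 and 31.1 normalized counts in P04 libraries, against 18.1, 13.3, 9.89 and 16.1 in P01 libraries (log2 fold change 1.01 ± 0.25 (SE), edgeR adjusted p = 0.00617), with a list median of -0.24 (0.02 with the library sizes of miRNA genes and 0.01 with those of snoRNA genes). Over all genes 4.13% were lower and 1.07% higher, and the median was 0.01 (0.27 and 0.26 with those sizes). With the sizes of miRNA or snoRNA genes H19 was the only one of the 4 still lower, and Snrpn lost its call with those of snoRNA genes. Hmga1, a chromatin protein of growing tissues, had 54.2, 69.97, 88.96 and 56.5 normalized counts in P04 libraries, against 199, 264, 242 and 188 in P01 libraries (log2 fold change -1.72 ± 0.18 (SE), edgeR adjusted p = 2.91e-08). Mir675, the miRNA inside H19, had no count in any of the 8 libraries, which allows up to 3 counts. With 1 library left out, calls were lost for Igf2 without P04 replicate 1, 3, 4 or 6 or P01 replicate 1, 6 or 8 (log2 fold change -0.78 to -0.96, adjusted p 0.0154 to 0.0525), Cdkn1c without P04 replicate 1 or 3 or P01 replicate 1 or 5 (log2 fold change -0.89 to -0.97, adjusted p 0.0108 to 0.0167), Igf1 without P01 replicate 5 (log2 fold change 0.81, adjusted p 0.00138) and Snrpn without P04 replicate 1, 3 or 6 or P01 replicate 5, 6 or 8 (log2 fold change 0.86 to 1.08, adjusted p 0.0119 to 0.0388).

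Replication-dependent histone genes, whose messenger RNAs end in a stem-loop without poly(A), lay below P01 as a family. Of 49 tested, 48 had a fold change below 0, the median log2 fold change was -0.56 (-0.28 and -0.31 with the sizes of miRNA and snoRNA genes), 5 were lower and none was higher. Over all genes, 49.2% had a fold change below 0, 4.13% were lower and 1.07% were higher. Hist1h1c, a linker histone, had 83.4, 120.3, 75.03 and 90.3 normalized counts in P04 libraries, against 210.0, 203, 203 and 222 in P01 libraries (log2 fold change -1.18 ± 0.15 (SE), edgeR adjusted p = 8.75e-07). Hist1h1d, another linker histone, had 72.97, 74.2, 79.3 and 71.5 normalized counts in P04 libraries, against 131, 138, 223 and 117 in P01 libraries (log2 fold change -1.04 ± 0.17 (SE), edgeR adjusted p = 5.16e-05). Both were free of overlap, as were Hist1h2be, Hist1h2bh and Hist1h4f, genes of core histones, at -0.88, -0.91 and -0.85 (edgeR adjusted p = 0.000868, 0.00282 and 0.000783). All 5 calls were lost with the sizes of miRNA or snoRNA genes, 3 to 7 members were called with 1 library left out, and near-identical copies of core histone genes may share reads.

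Of 59 cell cycle genes tested, 1 was higher and 2 were lower, where 1.07% of all genes were higher and 4.13% lower. The median log2 fold change was -0.23 (0.02 with the library sizes of miRNA genes and 0.03 with those of snoRNA genes), and 17 of the 59 had a fold change above 0. The median over all genes was 0.01 (0.27 and 0.26 with those sizes). E2f1, a transcription factor of entry into DNA synthesis, had 42.7, 34.1, 51.4 and 26.3 normalized counts in P04 libraries, against 103, 119, 73.4 and 117 in P01 libraries (log2 fold change -1.42 ± 0.20 (SE), edgeR adjusted p = 4.48e-06). Kif23, a motor protein of cell division, had 17.7, 23.9, 26.8 and 27.3 normalized counts in P04 libraries, against 54.4, 47.4, 53.7 and 23.5 in P01 libraries, with P01 replicate 8 among the P04 libraries (log2 fold change -0.89 ± 0.23 (SE), edgeR adjusted p = 0.00871). Mcm2, part of the helicase that opens DNA for copying, had 26.1, 25.6, 34.3 and 32.9 normalized counts in P04 libraries, against 16.6, 3.79, 9.89 and 7.34 in P01 libraries and was higher (log2 fold change 1.61 ± 0.34 (SE), edgeR adjusted p = 0.00114). Of E2f1 and Mcm2 neither lost its call with 1 library left out, and Kif23 kept it without P01 replicate 8 alone (adjusted p up to 0.0492). Of 37 genes of the extracellular matrix, Lama2, a laminin of muscle basement membranes, was higher at 116, 102, 98.6 and 104 normalized counts in P04 libraries, against 57.4, 49.3, 57.9 and 57.2 in P01 libraries (log2 fold change 0.92 ± 0.16 (SE), edgeR adjusted p = 8.52e-05) and none was lower.

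Outside these lists, the genes with the largest changes among those with a mean of at least 50 normalized counts and no overlap were examined. The largest rise was that of Adamts4, a protease that cuts aggrecan and versican (chr1:171250129-171262267), with 3075, 2097, 2316 and 14.1 normalized counts in P04 libraries, against 4.53, 11.4, 7.06 and 11.7 in P01 libraries. P04 replicates 1, 3 and 4 were far above every P01 library, and P04 replicate 6 lay just above the highest of them (log2 fold change 7.75 ± 1.54 (SE), edgeR adjusted p = 0.00478). Its call was lost in 6 of the 8 fits that left out 1 library, namely without P04 replicate 1 or 3 or P01 replicate 1, 5, 6 or 8 (log2 fold change 7.42 to 7.96, adjusted p 0.0107 to 0.0209), and in the fit of the 8 libraries alone (adjusted p 0.0296).
The next rises were smaller and even across libraries. Paqr9, a membrane receptor of the adiponectin receptor family, had 53.2, 65.7, 50.4 and 46.1 normalized counts in P04 libraries, against 12.1, 7.59, 18.4 and 8.802 in P01 libraries (log2 fold change 2.16 ± 0.24 (SE), edgeR adjusted p = 8.36e-08). Tuba4a, an alpha tubulin, had 111, 111, 83.6 and 82.8 normalized counts in P04 libraries, against 28.7, 20.9, 29.7 and 16.1 in P01 libraries (log2 fold change 2.01 ± 0.19 (SE), edgeR adjusted p = 4.94e-09). Tfrc, the receptor that brings iron-loaded transferrin into cells, had 136, 121, 106 and 115 normalized counts in P04 libraries, against 31.7, 34.1, 32.5 and 23.5 in P01 libraries (log2 fold change 1.97 ± 0.20 (SE), edgeR adjusted p = 3.63e-08). The days were clear of each other in these 3 genes, and no call was lost when 1 library was left out. Btnl9, a butyrophilin-like surface protein, had 57.3, 48.6, 50.4 and 51.8 normalized counts in P04 libraries, against 15.1, 15.2, 8.47 and 20.5 in P01 libraries (log2 fold change 1.81 ± 0.21 (SE), edgeR adjusted p = 1.82e-07). Arhgap18, which switches off RhoA, and Gpcpd1, which breaks down glycerophosphocholine, had log2 fold changes of 1.32 and 1.27 (edgeR adjusted p = 7.4e-06 and 6.79e-05).

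The largest falls included genes known mainly from other tissues or stages. Muc19, a gel-forming mucin, had 3.13, 5.12, 15.01 and 13.2 normalized counts in P04 libraries, against 153, 207, 120.1 and 173 in P01 libraries (log2 fold change -4.15 ± 0.26 (SE), edgeR adjusted p = 1.57e-11). Wnt4, a secreted signal of kidney and gonad development, had 3.13, 2.56, 21.4 and 2.82 normalized counts in P04 libraries, against 87.6, 112, 139.8 and 99.8 in P01 libraries (log2 fold change -3.93 ± 0.47 (SE), edgeR adjusted p = 3.4e-05). In Wnt4 the value of P04 replicate 4 stood above the other 3 P04 libraries. Trim71, a ubiquitin ligase of early embryos and a target of let-7, had 6.25, 9.39, 11.8 and 1.88 normalized counts in P04 libraries, against 57.4, 123, 26.8 and 77.8 in P01 libraries (log2 fold change -3.24 ± 0.45 (SE), edgeR adjusted p = 0.000102). Uncx, a homeobox gene of somites and kidney, had 15.6, 19.6, 30.01 and 10.4 normalized counts in P04 libraries, against 134, 322, 113 and 147 in P01 libraries, with P01 replicate 5 above the other P01 libraries (log2 fold change -3.23 ± 0.40 (SE), edgeR adjusted p = 8.38e-05). Gria2, a glutamate receptor subunit of neurons, had 9.38, 6.83, 25.7 and 11.3 normalized counts in P04 libraries, against 83.1, 106, 93.2 and 80.7 in P01 libraries (log2 fold change -2.79 ± 0.27 (SE), edgeR adjusted p = 1.29e-08).

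Further falls concerned genes of wider use. Mtmr9, a myotubularin-related protein without phosphatase activity, had 82.4, 97.3, 194 and 96.9 normalized counts in P04 libraries, against 902, 882, 744 and 659 in P01 libraries (log2 fold change -2.76 ± 0.25 (SE), edgeR adjusted p = 6.2e-07). Iqgap3, a scaffold protein of dividing cells, had 53.2, 56.3, 64.3 and 46.1 normalized counts in P04 libraries, against 296, 364, 234 and 315 in P01 libraries (log2 fold change -2.46 ± 0.17 (SE), edgeR adjusted p = 1.76e-11). Unc93b1, which brings Toll-like receptors to endosomes, had 43.8, 31.6, 79.3 and 51.8 normalized counts in P04 libraries, against 243, 357, 322 and 274 in P01 libraries (log2 fold change -2.54 ± 0.24 (SE), edgeR adjusted p = 7.01e-07). In these 3 the P04 libraries were well below all P01 libraries and P04 replicate 4 was the highest of its day. Fam117a and Tle1, a transcriptional corepressor, had log2 fold changes of -2.68 and -2.47 (edgeR adjusted p = 4.61e-10 and 2.09e-09). Rbm15b, an RNA-binding protein of the methylation machinery for messenger RNA, had 42.7, 73.4, 81.5 and 13.2 normalized counts in P04 libraries, against 165, 588, 230.2 and 170.2 in P01 libraries (log2 fold change -2.44 ± 0.52 (SE), edgeR adjusted p = 0.00782), and its call was lost without P04 replicate 1, 3 or 6 or P01 replicate 5 or 6 (log2 fold change -1.84 to -2.65, adjusted p 0.014 to 0.0306).

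Some of the genes that were lower had counts far above the median protein-coding gene. Over all protein-coding genes the median mean count was 24.8, over the genes lower at P04 it was 54.6, and over those higher 32.1. Ccdc33, a coiled-coil gene known mainly from testis (chr9:58028673-58118823), had 11515, 12546, 22338 and 13339 normalized counts in P04 libraries, against 32465, 48760.0, 48835 and 26929 in P01 libraries. Tesmin, also known from testis (chr19:3388857-3407823), had 8854, 7514, 15099 and 10079 normalized counts in P04 libraries, against 28324, 35336, 31196 and 28480.0 in P01 libraries. Actr10, a dynactin subunit (chr12:70937857-70964718), had 5730.5, 4978, 9843 and 5084 normalized counts in P04 libraries, against 18354, 25174, 20116 and 18363 in P01 libraries. All 3 were lower without overlap, with P04 replicate 4 the highest of its day (log2 fold change -1.39 ± 0.25 (SE), edgeR adjusted p = 0.000409 for Ccdc33, log2 fold change -1.57 ± 0.28 (SE), edgeR adjusted p = 0.000926 for Tesmin and log2 fold change -1.68 ± 0.22 (SE), edgeR adjusted p = 4.06e-06 for Actr10). They were chosen after their values were seen. Which part of each gene the reads came from was not examined.

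Among lncRNAs the largest fall was that of Zfas1 (chr2:167062934-167065862), a host gene of snoRNAs whose spliced transcript is made beside Znfx1. It had 50.04, 82.8, 119 and 70.6 normalized counts in P04 libraries, against 568, 918, 569 and 550.1 in P01 libraries. P01 replicate 5 was the highest library, and the other P01 libraries were still far above all P04 libraries (log2 fold change -3.01 ± 0.23 (SE), edgeR adjusted p = 5.06e-08). Snord12 and Gm23201, the snoRNAs annotated within it, had no count in any of the 8 libraries, so they could not be compared with their host. B330016D10Rik had 305, 230.4, 463 and 296 normalized counts in P04 libraries, against 1023, 1436, 1188 and 1153 in P01 libraries (log2 fold change -1.89 ± 0.19 (SE), edgeR adjusted p = 7.77e-08). Miat, a nuclear lncRNA of heart and brain, had 30.2, 20.5, 51.4 and 26.3 normalized counts in P04 libraries, against 75.5, 75.9, 60.7 and 71.9 in P01 libraries (log2 fold change -1.16 ± 0.23 (SE), edgeR adjusted p = 0.000604). B130046B21Rik, F930015N05Rik, D330025C20Rik and 1110018N20Rik had log2 fold changes of -1.96, -1.79, -1.67 and -1.48 (edgeR adjusted p = 0.000521, 8.75e-05, 2.35e-07 and 2e-05). In the other direction, Snhg14, the long host of snoRNAs in the Prader-Willi region, had 44.8, 34.98, 34.3 and 53.6 normalized counts in P04 libraries, against 21.1, 20.9, 18.4 and 24.9 in P01 libraries (log2 fold change 0.97 ± 0.24 (SE), edgeR adjusted p = 0.00582). With 1 library left out, the call was lost for Snhg14 without P04 replicate 1 or 6 or P01 replicate 1, 5 or 6 (log2 fold change 0.83 to 0.97, adjusted p 0.0164 to 0.0359). Zfas1 and Snhg14 were the only genes called among 14 snoRNA host lncRNAs, whose median was -0.21 (0.06 with the library sizes of miRNA genes and 0.04 with those of snoRNA genes). Over all genes 5.2% were called, 4.13% lower and 1.07% higher, and the median was 0.01 (0.27 and 0.26 with those sizes).

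The snoRNAs differed little one by one but leaned one way. Of 165 tested, 138 had a fold change below 0, and the median was -0.23, beside 0.01 over all genes. With the library sizes of miRNA genes these medians were 0.05 and 0.27. Sizes taken from the snoRNA genes themselves gave 0.01 and 0.26, but they set the snoRNA median near 0 by design. In 43 of the 165 snoRNAs every P04 library was below every P01 library and in none above, beside 8.93% and 7.4% of all genes. By subclass, 40 of 43 C/D box snoRNAs with Snord symbols lay below 0 (median -0.30), against 13 of 17 H/ACA box snoRNAs with Snora symbols (median -0.11) and 5 of 7 Cajal body RNAs (median -0.29). C/D box RNAs guide methylation of ribosomal RNA and H/ACA box RNAs guide the change of uridine to pseudouridine. The difference between the subclasses was not tested.

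The single snoRNA that passed the test was Gm24837 (chr4:41211502-41211582), which lies within Ubap2. It had 108, 127, 118 and 121 normalized counts in P04 libraries, against 239, 239, 205 and 230.3 in P01 libraries, without overlap (log2 fold change -0.94 ± 0.16 (SE), edgeR adjusted p = 7.48e-05), and its call was lost with the sizes of miRNA or snoRNA genes. Snord49a had 25683, 30974, 25601 and 28557 normalized counts in P04 libraries, against 40109, 38901, 39092 and 39279 in P01 libraries. Snord37 had 27901, 32400.1, 26969 and 28286 normalized counts in P04 libraries, against 33068, 35799, 36419.7 and 36795 in P01 libraries. Snord82 had 20624, 23404, 21716 and 23216 normalized counts in P04 libraries, against 31222, 28670.4, 29852 and 29569 in P01 libraries. These 3 abundant C/D box RNAs lay below P01 in every P04 library but were not called (log2 fold changes -0.51, -0.30 and -0.42, edgeR adjusted p = 0.0421, 0.281 and 0.0865). At a looser adjusted p under 0.05 with no minimum fold, 19 of the 165 passed.

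Small RNAs were set beside the genes that hold them. Of 136 pairs of a snoRNA and a host gene, 73 had fold changes of the same sign, 2 hosts were called, and no pair had both members called. Of 105 pairs of a miRNA and a host, 54 had the same sign, 6 hosts were called, and no pair had both members called. The 136 pairs hold 134 snoRNAs in 108 hosts and the 105 pairs hold 100 miRNAs in 75 hosts, so pairs share members. Over all genes 5.2% were called. Only 1 of the paired snoRNAs and 2 of the paired miRNAs were called, so few pairs could have had both members called.

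Among miRNAs, Mir2137, Mir5099 and Mir351 were among those with the largest falls. Mir2137 had 23.98, 26.5, 31.1 and 15.996 normalized counts in P04 libraries, against 98.2, 142, 120.1 and 166 in P01 libraries (log2 fold change -2.43 ± 0.20 (SE), edgeR adjusted p = 5.72e-10). Mir5099, for which no mature sequence is shown, had 101, 108, 126 and 59.3 normalized counts in P04 libraries, against 255, 241, 251 and 242 in P01 libraries (log2 fold change -1.33 ± 0.21 (SE), edgeR adjusted p = 0.000129). Mir351 had 2585, 2761, 3688 and 3495 normalized counts in P04 libraries, against 6662, 8497, 6172 and 6707 in P01 libraries (log2 fold change -1.16 ± 0.18 (SE), edgeR adjusted p = 1.61e-05). None of the 3 overlapped between the days. miR-351-5p carries the seed of miR-125b-5p (CCCUGAG), whose gene Mir125b-2 had 58.4, 78.5, 98.6 and 93.2 normalized counts in P04 libraries, against 78.6, 75.9, 77.7 and 76.3 in P01 libraries and was not called (log2 fold change 0.09). On the X chromosome Mir351 lies in 1 cluster with Mir322 and Mir503, which both lay below P01 without overlap and stayed under the fold threshold (log2 fold change -0.66 ± 0.18 (SE), edgeR adjusted p = 0.0135 for Mir322, and log2 fold change -0.78 ± 0.17 (SE), edgeR adjusted p = 0.00206 for Mir503). All 5 members of this cluster that were tested had fold changes below 0.

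Further miRNAs were lower by smaller amounts. Mir1983 had 288, 281, 458 and 375 normalized counts in P04 libraries, against 695, 785, 626 and 634 in P01 libraries (log2 fold change -0.97 ± 0.18 (SE), edgeR adjusted p = 0.00045). Mir495, of the imprinted Dlk1-Dio3 cluster, had 55.3, 51.2, 76.1 and 59.3 normalized counts in P04 libraries, against 118, 140.3, 121 and 119 in P01 libraries (log2 fold change -1.04 ± 0.15 (SE), edgeR adjusted p = 1.11e-05) and was the only one called of 34 in that cluster, where 5.2% of all genes were called. Mir877, a miRNA cut directly from a spliced intron, had 33.4, 38.4, 51.4 and 31.1 normalized counts in P04 libraries, against 58.9, 104, 81.9 and 63.1 in P01 libraries (log2 fold change -0.99 ± 0.19 (SE), edgeR adjusted p = 0.000378). Mir298, Mir484 and Mir224 had log2 fold changes of -0.92, -0.95 and -1.23 (edgeR adjusted p = 0.000719, 0.00243 and 0.00957). Of the 10 falls, 3 were called with the sizes of miRNA genes and 2 with those of snoRNA genes. Mir224 lost its call whichever library was left out (adjusted p 0.0106 to 0.0471), as did Mir484 without P04 replicate 3, 4 or 6 or P01 replicate 1 or 5 (log2 fold change -0.82 to -0.94, adjusted p 0.0101 to 0.0143), Mir298 without P04 replicate 1 or P01 replicate 1 (log2 fold change -0.83 to -0.84, adjusted p 0.00422 to 0.00532) and Mir877 without P01 replicate 5 (log2 fold change -0.82, adjusted p 0.00484).

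The 2 miRNAs that were higher were Mir150 and Mir200c. Mir150, abundant in mature lymphocytes, had 416, 543, 816 and 545 normalized counts in P04 libraries, against 153, 169, 148 and 147 in P01 libraries, without overlap (log2 fold change 1.91 ± 0.20 (SE), edgeR adjusted p = 6.95e-08). Of 23 lymphocyte and thymus markers only 4 had enough counts to be tested, Mir150 among them, and the other 3 were not called. Among the untested markers, Cd3g, Cd2, Rag2, Ptcra, Cd4 and Mir155 were at 0 in all 8 libraries. Mir200c, a miRNA of epithelial cells, had 13, 12, 13 and 16 counts in P04 libraries, against 0, 0, 1 and 0 in P01 libraries. The summed counts were 54 and 1, a ratio of 33.7 after scaling (95% exact interval 5.81 to 1357, counting error only). The let-7 family and the muscle miRNAs, 8 genes tested of each, held no call (medians 0.11 and 0.09), where 5.2% of all genes were called. Mir126a and Mir17, which many cells express, had no count in any of the 8 libraries, so an absence of counts did not show an absence of the miRNA.

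Mitochondrial RNAs changed in 2 transfer RNAs. mt-Tc, the tRNA for cysteine, had 2296, 2189.5, 1758 and 2027 normalized counts in P04 libraries, against 3682, 3819, 4719 and 5409 in P01 libraries. Every P04 library was below every P01 library (log2 fold change -1.09 ± 0.20 (SE), edgeR adjusted p = 0.000227), and the call was lost with the sizes of miRNA or snoRNA genes. mt-Th, the tRNA for histidine, had 3, 10, 5 and 17 counts in P04 libraries, against 0, 0, 0 and 2 in P01 libraries. The ratio after scaling was 10.9 (95% exact interval 2.81 to 93.8, counting error only), and its call was lost without P04 replicate 3 or 6 or P01 replicate 1, 5 or 6 (log2 fold change 2.73 to 3.25, adjusted p 0.0163 to 0.0294). The 16S ribosomal RNA mt-Rnr2 had 461581, 455587, 377563 and 393992 normalized counts in P04 libraries, against 355589, 331324, 367930.0 and 392026 in P01 libraries, overlapping between the days (log2 fold change 0.22 ± 0.16 (SE), edgeR adjusted p = 0.422). mt-Co1, a subunit of cytochrome oxidase, had 12814, 8238, 6579 and 7095 normalized counts in P04 libraries, against 7459.9, 3827, 4695 and 6419.9 in P01 libraries and was not called (log2 fold change 0.63 ± 0.23 (SE), edgeR adjusted p = 0.0707).

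Among genes that carry nuclear ribosomal RNA sequence, 5 of 49 were lower and none was higher, where 4.13% of all genes were lower. Gm26917 had 34018, 44454, 40220.3 and 34767 normalized counts in P04 libraries, against 91753, 109928, 95640.2 and 80974 in P01 libraries (log2 fold change -1.30 ± 0.18 (SE), edgeR adjusted p = 4.4e-06). Gm42418, with the most counts of any gene, had 1278970.0, 1504920.0, 1435520.0 and 1403430.0 normalized counts in P04 libraries, against 1849630.0, 1898940.0, 1596500.0 and 1743000.0 in P01 libraries and was not called (log2 fold change -0.33 ± 0.16 (SE), edgeR adjusted p = 0.182). Both lay below P01 in every P04 library.

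Some genes of blood and vessels also differed. Hbb-bs, an adult beta globin, had 547, 734, 559 and 605 normalized counts in P04 libraries, against 1154, 1143, 1161 and 1177 in P01 libraries (log2 fold change -0.92 ± 0.15 (SE), edgeR adjusted p = 4.85e-05) and was the only one called of 8 erythroid markers, 7 of which had fold changes below 0. Its call was lost without the filter on low counts and with the sizes of miRNA or snoRNA genes. Rgs5, a signal regulator of pericytes, had 141, 154, 155 and 126 normalized counts in P04 libraries, against 75.5, 73.96, 60.7 and 60.1 in P01 libraries (log2 fold change 1.09 ± 0.14 (SE), edgeR adjusted p = 9.42e-07). Myh11, the myosin of smooth muscle, and Cldn5, a tight junction protein of endothelium, had log2 fold changes of 1.58 and 1.41 (edgeR adjusted p = 0.00482 and 0.00376). Rgs5 and Myh11 were 2 of 13 markers of smooth muscle and pericytes, and Cldn5 1 of 15 of endothelium, where 1.07% of all genes were higher. Of the 13, 11 had a fold change above 0 (median log2 fold change 0.41). Of the 15 endothelial markers only 7 did (median -0.06), so that list as a whole showed no rise. None of 13 fibroblast and 8 leukocyte markers was called. Of the 13 fibroblast markers 11 had a fold change above 0 (median log2 fold change 0.43), and of the 8 leukocyte markers 3 did (median -0.11). The 14 fibroblast markers listed summed to 707 to 998 CPM at P04, against 487 to 639 at P01. Over all genes 4.13% were lower and 49.2% had a fold change below 0. With 1 library left out, calls were lost for Myh11 without P04 replicate 3 or 6 or P01 replicate 1, 5 or 6 (log2 fold change 1.28 to 1.65, adjusted p 0.0112 to 0.0309) and Cldn5 without P04 replicate 1, 3 or 6 or P01 replicate 5, 6 or 8 (log2 fold change 1.32 to 1.46, adjusted p 0.0102 to 0.0156). The part of these cell types in the other results was not tested.

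The changes between P01 and P04 were then followed to the later days in P09 and P23 libraries, a comparison that shares no library with the first. Between P09 and P23, 4.76% of all genes were higher at P23 and 5.55% lower. Of the 115 genes higher at P04, 15 were higher again (13.0%) and 14 were lower (12.2%). Of the 444 genes lower at P04, 50 were lower again (11.3%) and 19 were higher (4.28%). Those lower in both comparisons included Myh7, Mir351, H19, Igf2, Dlk1 and 4 of the 5 histone genes. Those higher in both included Tuba4a, Mir150 and Xirp2.
Some genes turned back. In order of age from P01 to P23, Igf1 averaged 55.4, 102, 104 and 53.1 normalized counts, and was lower at P23 than at P09 (log2 fold change -0.97, edgeR adjusted p = 1.07e-05). Hbb-bs, mt-Tc, Ddit4 and Zbtb16 were lower at P04 than at P01 and higher at P23 than at P09.

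**Figure D5:**
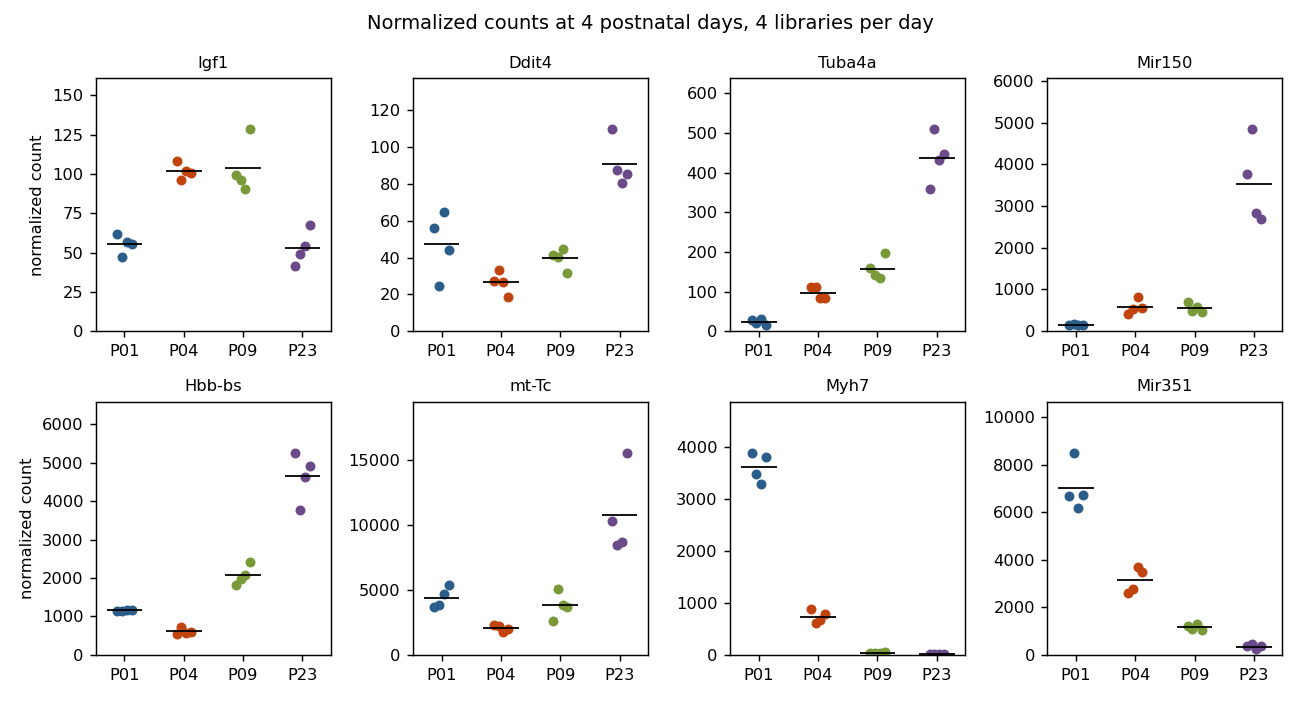
Normalized counts of 8 genes in the 4 libraries of each postnatal day (P01, P04, P09 and P23, left to right), on linear axes that start at 0, with the mean of each day as a bar. At P23, relative to P09, Igf1 was lower after a higher P04, Ddit4, Hbb-bs and mt-Tc were higher after a lower P04, Tuba4a and Mir150 were higher again, and Myh7 and Mir351 were lower again.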

How the data were processed

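Total RNA of the ventricles of single pups was made into small RNA libraries, which the authors split by index (bcl2fastq), trimmed (Trimmomatic), aligned to GRCm38.p6 (STAR) and counted per gene (featureCounts). The deposited counts are whole numbers, not normalized. The sources used here do not give tool versions, the annotation release or the use of strand. The table names its columns by day and animal number, so libraries were placed by day, and 1 value column that belongs to no sample was not used. Library totals and their spread between animals set the precision. Reads carried no molecular identifiers, so intervals and floors (3 counts) cover counting error only, and p-values measure the spread between single animals.

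Genes were kept by filterByExpr (minimum count 10, minimum total 15), scaled by TMM, and tested with the edgeR quasi-likelihood test in a single fit of the 16 libraries by day, with Benjamini-Hochberg adjustment over 10742 genes. Normalized counts are counts divided by the TMM effective library size and multiplied by the mean effective size of the 16 libraries. Classes were taken from RefSeq by symbol, for 38375 of 53801 genes. Class shares were tested by exact permutation over 70 assignments, two-sided, for which 0.0286 is the smallest p. Genes were named by a rule: at least 50 mean normalized counts, no overlap, and the largest changes of each class. The members and lists were chosen with earlier results of these data known. Genes named outside the rule or the lists were chosen after their values were seen. The values of some list members are not reported here.

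On simulated data the fit recovered 2.99% of genes changed by 1.5 times, 35.8% of those changed by 2 times and 83.3% of those changed by 4 times, with 0 false calls among 10274 genes. No 2 libraries of a day differed by as little as sampling noise (chi-square per degree of freedom 5.55 to 18 at P04 and 7.19 to 13.1 at P01). Alternatives were DESeq2, no filter, the 8 libraries alone, other scalings, thinning to 2301587 counts, a looser threshold and leaving out each library. Software comprised Python 3.11.15 (scipy 1.17.1, pandas 2.3.3, numpy 2.4.6, matplotlib 3.10.9) beside R 4.3.3 (DESeq2 1.42.0, limma 3.58.1, edgeR 4.0.16).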

Additional observations from a re-analysis of the deposited data

Results flagged for a closer look

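In 17 of 254 groups of 4 libraries examined for this report, 1 library lay far from the other 3 (its gap to the nearest, over the range of the group, exceeded the 95% critical value of Dixon's test). Chance flags about 1 in 20 groups, and the genes were not independent.

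P01 replicate 5 was the far library in 7 of the 17. It was the highest P01 library for Uncx (322 normalized counts), Rbm15b (588), Zfas1 (918), F930015N05Rik (218), 1110018N20Rik (72.1) and Mir495 (140.3), and the lowest for Lama2 (49.3). P04 replicate 4 was the highest P04 library for Wnt4 (21.4), Mtmr9 (194), Ccdc33 (22338), Actr10 (9843) and Mir298 (667). P01 replicate 6 was the lowest P01 library for Slc27a1 (4.24) and Car9 (55.1), and P04 replicate 3 the highest P04 library for Oxct1 (247).

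Among the shares, P04 replicate 1 was the lowest P04 library for nuclear ribosomal RNA, at 38.3% of counts beside 41.5% to 41.9% in the other P04 libraries. P04 replicate 6 was the lowest P04 library for mitochondrial tRNA, at 2.16% beside 2.48% to 2.53%. The cause of these differences was not tested.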

How the results depend on the processing

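No alternative turned the direction of any of the 100 genes named as called. Of these, 12 lost their call with DESeq2, 16 with no filter on low counts, 29 with library sizes from miRNA genes, 34 with sizes from snoRNA genes, 2 with sizes from protein-coding genes, and 9 to 21 when 1 library was left out. Of the 96 that could be fitted, 8 lost it in the 8 libraries alone and 14 after thinning. The 8 were Adamts4, Ddit4, Hist1h4f, Kif23, Myh11, Rbm15b, Slc27a1 and Trim71. The 14 were Casq1, Hist1h2be, Hist1h2bh, Hist1h4f, Igf1, Kif23, Mir298, Mxi1, Myh11, Rps29, Slc25a20, Slc2a1, Snhg14 and Xirp2. Beside the losses given with the results, DESeq2 lost Slc25a20, Slc27a1, Snhg14, Snrpn, Ddit4, Igf2, Per2, Kif23, Mir224, Cldn5, Myh11 and mt-Th, no filter lost Adamts4, Ccdc33, Tesmin, Rbm15b, Igf2, Kif23, Hist1h2be, Hist1h2bh, Hist1h4f, Mir224, Mir298 and Myl4, sizes from miRNA genes lost Rps29, Miat, Kif23 and Myl4, and sizes from snoRNA genes lost Rps29, Miat, Kif23, Ccdc33, Tesmin, Rbm15b, 1110018N20Rik and Mir351. With no filter, 213 genes were higher at P04, among them 190 protein-coding, 8 lncRNA and 4 miRNA genes, and 2 snoRNA and 2 mitochondrial genes were lower. At an adjusted p under 0.05 with no minimum fold, 503 genes were higher and 806 lower: 471 and 670 protein-coding, 6 and 29 miRNA, 3 and 3 mitochondrial genes, 11 lncRNA genes higher and 19 snoRNA genes lower. At an unadjusted p under 0.05, 1227 genes were higher and 1452 lower. With DESeq2, 71 protein-coding and 0 mitochondrial genes were higher and 2 mitochondrial genes lower. In the 8 libraries alone, 0 mitochondrial genes were higher, 3 were lower, and 2 snoRNA genes were lower. Sizes from miRNA genes, chosen for all genes after the data were seen, gave 175 higher and 253 lower, with 5 and 3 among miRNAs. Sizes from snoRNA genes gave 170 lower, with 0 snoRNAs, and sizes from protein-coding genes 3 snoRNAs lower. Sizes taken from a class set its own median near 0 by design, so they cannot show a shift of that class as a whole. After thinning, 1 miRNA was higher and 3 snoRNAs were lower. Leaving out 1 library gave 93 to 127 genes higher and 354 to 524 lower, 1 to 3 snoRNAs lower, 2 to 4 miRNAs higher and 7 to 17 lower, and 0 to 1 mitochondrial genes higher and 1 to 2 lower.

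The difference of the miRNA share ran from -0.20 to 0.34 percentage points when 1 library was left out. The messenger RNA share differed by 0.55 points, P04 above P01, once mitochondrial genes left the total, and the lncRNA share by -0.10 points without 4930583K01Rik, an alternative chosen after the data were seen. The cause was not tested. No paired analysis was possible because the columns carry animal numbers that do not match the replicate numbers of the labels, so the fit with a replicate block was not run. The simulation recovered 35.8% of genes changed by 2 times. Depth and day cannot be told apart in the libraries as counted, since every P04 library was the deeper.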
